A study of Mus musculus with 6 samples.

Results

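Proteasome subunit genes were described in kidney cortex of mice expressing I-PpoI in the epithelial cells of the proximal tubule (PT-I-PpoI, 3 libraries) and of wild type mice (3 libraries). I-PpoI is a homing endonuclease that cuts DNA at a long recognition sequence and leaves double-strand breaks. Members were all genes of the count table named Psma, Psmb, Psmc or Psmd followed by a number, apart from the immunoproteasome genes Psmb8, Psmb9 and Psmb10. That gave 36 of 24421 genes, and the rule uses gene names alone, although the gene family itself was picked with earlier results of these data known. Of these, 34 passed the filter on low counts and were among the 13977 genes tested. The promoter driving I-PpoI, and the age, sex and strain of the mice, were not given in the sources used here. The labels number the libraries of a group but do not say whether they are separate animals, and p-values therefore measure only the spread between these libraries, which may be technical.

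The proteasome is the barrel-shaped protease that degrades proteins tagged with ubiquitin. Its 20S core stacks outer rings of alpha subunits, which gate the channel, on inner rings of beta subunits, of which Psmb5, Psmb6 and Psmb7 carry the active sites. The 19S regulatory particle caps the core: its Psmc subunits form an ATPase ring that unfolds the substrate, and its Psmd subunits include ubiquitin receptors, scaffolds and the deubiquitinase Psmd14. Psmd5, Psmd9 and Psmd10 are chaperones that assemble the ATPase ring and are not part of the finished particle. Transcription of subunit genes is raised by the factor NRF1 (gene Nfe2l1) when proteasome activity is short. The proteasome also removes p53 and other regulators of the DNA damage response.

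NRF1 binds the antioxidant response element, and the promoters of the catalytic subunit genes Psmb5 and Psmb6 are shown because each holds the core of this element, TGACNNNGC, in capitals. The windows cover 250 bases before and 50 bases after the start site, 5′ to 3′ on the strand of the gene, from RefSeq (GRCm38.p6). They are chr14:54617946-54618245 on the minus strand for Psmb5 and chr11:70525107-70525406 on the plus strand for Psmb6.
Psmb5: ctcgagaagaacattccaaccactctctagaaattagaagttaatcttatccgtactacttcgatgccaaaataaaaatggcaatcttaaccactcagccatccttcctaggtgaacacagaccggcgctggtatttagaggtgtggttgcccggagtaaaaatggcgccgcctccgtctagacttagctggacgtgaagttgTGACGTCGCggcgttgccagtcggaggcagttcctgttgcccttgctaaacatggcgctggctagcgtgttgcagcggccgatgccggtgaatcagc
Psmb6: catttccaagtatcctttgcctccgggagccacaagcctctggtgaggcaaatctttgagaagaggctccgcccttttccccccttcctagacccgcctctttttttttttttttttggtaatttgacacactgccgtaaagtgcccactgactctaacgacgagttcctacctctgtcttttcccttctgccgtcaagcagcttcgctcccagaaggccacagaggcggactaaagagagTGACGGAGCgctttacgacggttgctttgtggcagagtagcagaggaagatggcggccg
The match lies at -47 to -39 from the Psmb5 start site and at -9 to -1 from that of Psmb6. Searched on both strands, TGACNNNGC occurred in 5 of 31 promoters of the 29 members with an entry, those of Psmb5, Psmb6, Psmc6, Psmd9 and Psmd12, a share of 16.1%, against 12.4% of all 32851 promoters in the table. The ETS factor motif CCGGAAG occurred in 11 of the 31 promoters (35.5%) and in 8.86% of all promoters. These matches describe letters in the windows and carry no test.

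Totals ranged from 13582540 to 20861021 counted read pairs per library, and the 34 tested members had between 336 and 4925 counts in any library. All 7 proximal tubule markers examined, such as Lrp2 and Slc34a1, were detected. Marker sums here are in CPM (counts per 1000000) of the library total without TMM scaling, while CPM elsewhere uses the TMM-scaled library size. Summed in this way, the 7 spanned 11645 to 15033 in PT-I-PpoI, against 14704 to 17479 in wild type, so the groups overlapped. All 7 had log2 fold changes below 0, with a median of -0.22, and 0 passed the test. The 4 markers of the thick ascending limb summed to 5762 to 6169 CPM in PT-I-PpoI, against 3812 to 4397 CPM in wild type, and the 5 of the collecting duct to 777 to 896 CPM in PT-I-PpoI, against 503 to 551 CPM in wild type. The 3 endothelial markers summed to 230.3 to 242 CPM in PT-I-PpoI, against 187 to 228 CPM in wild type. Without TMM scaling these 3 lists did not overlap between the groups. With it, the endothelial sum of PT-I-PpoI replicate 2 was below that of wild type replicate 1, so that list overlapped. Avpr2, the vasopressin receptor of the collecting duct, passed the test (log2 fold change 0.86 ± 0.11, edgeR adjusted p = 0.0385). The part of these lists in the results that follow was not tested. The 4 macrophage markers summed to 47.7 to 54.4 CPM in PT-I-PpoI, against 42.6 to 51.6 CPM in wild type, and the 3 lymphocyte markers to 1.19 to 2.94 CPM in PT-I-PpoI, against 1.69 to 4.04 CPM in wild type. Of the erythroid pair, Hba-a1 was at 0 in every library, whereas Alas2 was detected in every library. In TMM-scaled CPM, Alas2 spanned 5.08 to 18.6 in PT-I-PpoI and 6.79 to 14.4 in wild type, so the groups overlapped. The deposited names of the libraries have 2 forms. A hyphen stands before the number in those of wild type replicates 2 and 3 and PT-I-PpoI replicate 3, and is missing in the other 3. No label says that the form marks a batch. Differences within the forms, PT-I-PpoI minus wild type in log2 CPM, rest on 3 libraries each and are given with no test. Among the genes whose values are given in every library, they are stated wherever one moved by more than the SD between replicates. In whole cortex, fewer cells of a type and less RNA per cell cannot be told apart.

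No proteasome subunit gene passed the test between PT-I-PpoI and wild type, and the differences were small. Fitted log2 fold changes of the 34 members ran from -0.20 (Psmd1, a scaffold subunit of the 19S particle) to 0.12 (Psma5, an alpha ring subunit), with 17 above 0 and 17 below. Their median was 0.00096, against 0.00039 over all genes tested. By edgeR's quasi-likelihood test 0 of 34 had an adjusted p under 0.05, where 0.136% of all genes tested did (19 genes, all higher). DESeq2 called 0 members and 1.39% of genes (133 higher and 61 lower), limma-voom 0 and 0.1%, and limma on the deposited rlog values 0 and 0.093%. At an unadjusted p under 0.05, 0 of 34 members were higher or lower, whereas 12% of all genes tested were. The smallest adjusted p of a member was 0.519 (edgeR, Psmd1). Without PT-I-PpoI replicate 3 edgeR called 4.41% of genes (257 higher and 360 lower) and again 0 of 34 members.

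**Figure D1:**
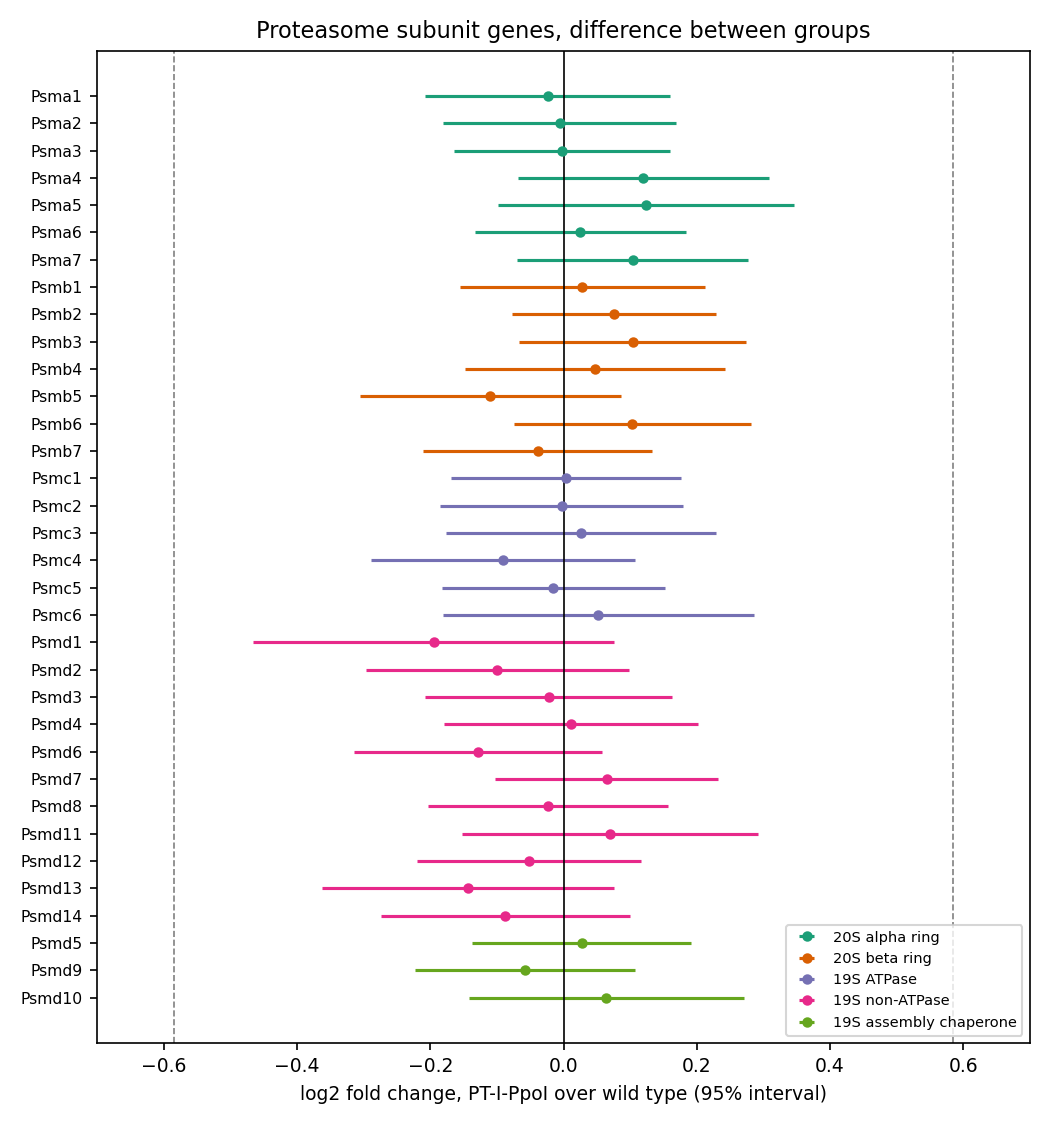
Log2 fold change of each of the 34 tested proteasome genes, PT-I-PpoI over wild type, with its 95% interval from the edgeR fit; colours mark the role in the complex and dashed lines mark a 1.5-fold change in either direction. All 34 intervals cross 0 and lie between the dashed lines.

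The intervals describe, gene by gene, the size of the differences between these libraries of whole cortex. Every 95% interval of the 34 log2 fold changes lay within a 1.5-fold change in either direction, the lowest end being 0.724-fold (Psmd1) and the highest 1.27-fold (Psma5). Over all genes tested, 66.0% of the intervals did so. The size of the log2 fold change had a median of 0.13 over all genes tested, and 65.1% of genes did not exceed the largest member value. The members were also abundant and varied little between replicates: their median within-group SD was 0.073 on the log2 scale at a median of 131 CPM, against 0.15 at 22.4 CPM over all genes tested. These intervals are not adjusted for the number of genes.

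**Figure D2:**
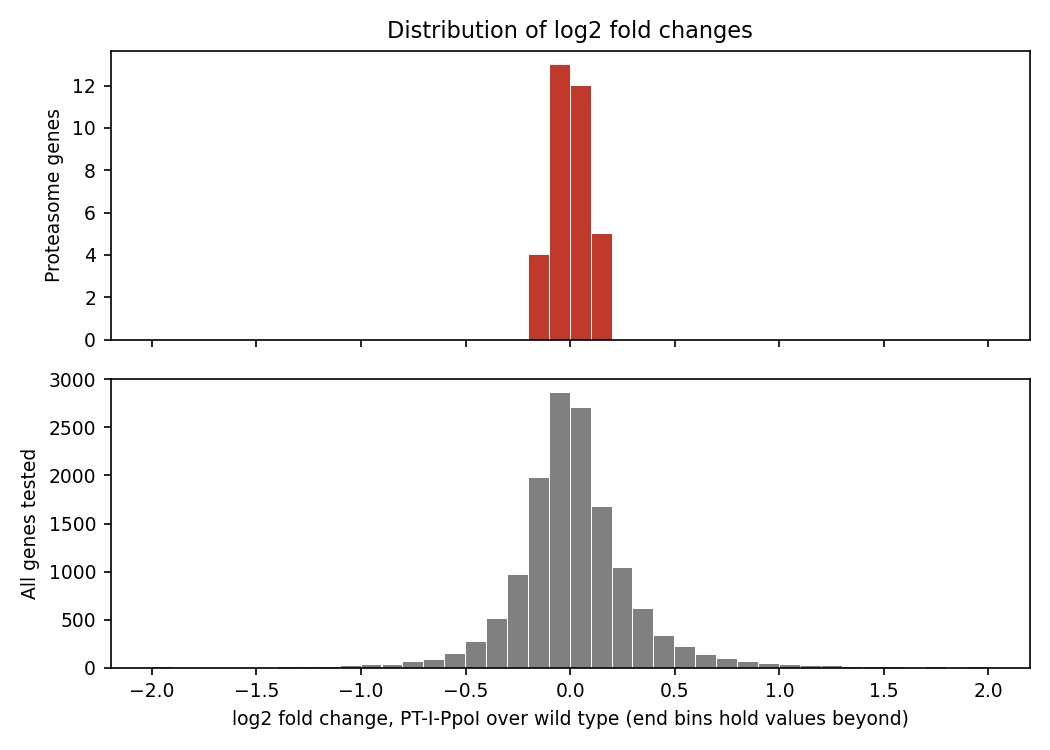
Number of genes in bins of 0.1 of log2 fold change, PT-I-PpoI over wild type, for the 34 proteasome genes (upper panel) and for all 13977 genes tested (lower panel). Of the 34 members, 13 lie between -0.1 and 0, 12 between 0 and 0.1, 4 between -0.2 and -0.1 and 5 between 0.1 and 0.2.

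Levels per gene length differed between members far more than between groups. On the RPKM scale (CPM per kilobase of exon), mean levels over the 6 libraries ran from 16.9 for Psmd9 to 219.9 for Psma4. The 14 tested genes of the 20S core had a median level of 159.6 RPKM, the 6 ATPase genes 97.2 RPKM, the 11 non-ATPase genes 65.9 RPKM and the 3 chaperone genes 18.2 RPKM, against 7.12 RPKM over all genes tested. Although an assembled alpha ring holds each of its subunits in equal number, the highest level in that group was 3.95-fold the lowest (Psma4 at 219.9 and Psma5 at 55.7 RPKM). The ratio of highest to lowest level was 2.05 among beta ring genes (Psmb4 and Psmb2), 1.80 among ATPases (Psmc3 and Psmc6) and 2.67 among non-ATPase subunits (Psmd8 and Psmd1). RefSeq names pseudogenes of Psma5, Psmb5, Psmb6 and Psmb7. The deposited command sets no option to count reads that map equally well to such a copy, so the levels of these 4 genes are uncertain. Copies under names not built on the gene symbol were not searched for, so other members may share this limit. Exons of Psmb5 overlap Mir686 and those of Psma4 overlap AY074887, and no option was set to count reads that fall on both genes of such a pair.

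**Figure D3:**
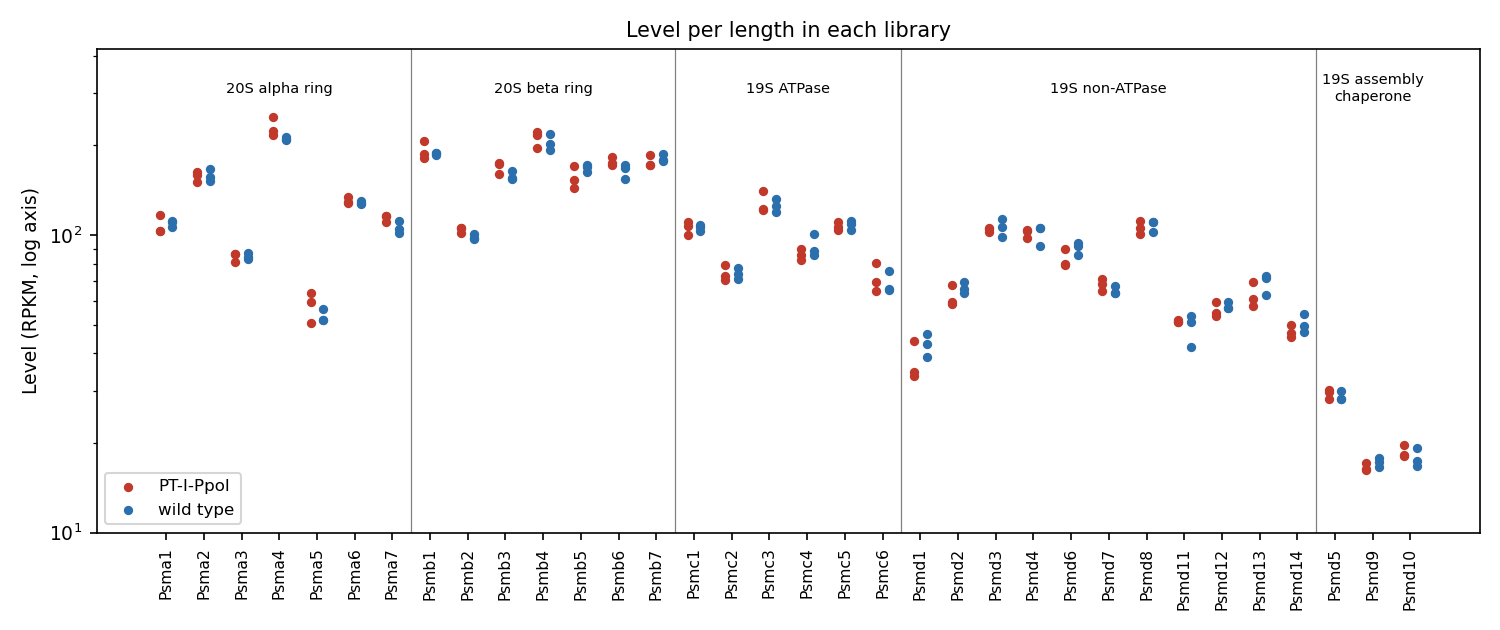
Level of each of the 34 tested proteasome genes in every library, in RPKM on a log axis, grouped by role; each point is a library, PT-I-PpoI left of wild type. Levels range from 16.9 RPKM (Psmd9) to 219.9 RPKM (Psma4) on average, while the points of the groups lie close together within each gene.

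Alpha ring genes shared neither a rise nor a fall: 4 of the 7 tested had log2 fold changes above 0 and their median was 0.025. In the values that follow, libraries are in the order of replicates 1, 2 and 3. Psma4 (chromosome 9, 54950859 to 54958030, mm10), the most abundant of them, was at 237, 272 and 244 CPM in PT-I-PpoI and 234, 230.5 and 228 CPM in wild type. Every PT-I-PpoI library lay above every wild type library, with PT-I-PpoI replicate 2 the highest, and the log2 fold change was 0.12 ± 0.083 (SE; edgeR adjusted p = 0.567). Psma7, at 176, 184 and 184 CPM in PT-I-PpoI and 161, 177 and 167 CPM in wild type, overlapped between the groups, with a log2 fold change of 0.10 ± 0.076. Psma5 was at 72.3, 77.9 and 61.7 CPM in PT-I-PpoI, against 68.6, 63.2 and 62.8 CPM in wild type. Its highest values were PT-I-PpoI replicates 1 and 2 and its lowest was PT-I-PpoI replicate 3, so that the groups overlapped, and the log2 difference was 0.13 within libraries whose names lack a hyphen and -0.030 within those with one. The other members, Psma1, Psma2, Psma3 and Psma6, had log2 fold changes from -0.024 to 0.025. Psma8, the paralog of Psma7 known from testis, did not pass the filter and had 6, 5 and 5 counts in PT-I-PpoI and 9, 1 and 3 counts in wild type.

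Among beta ring genes 5 of the 7 tested had log2 fold changes above 0, with a median of 0.047, and none passed. The catalytic subunits did not lean in a common direction. Psmb6 (chromosome 11, 70525357 to 70527858), with caspase-like activity, was at 178, 181 and 189 CPM in PT-I-PpoI, against 160 and 173 CPM in wild type replicates 1 and 2 and 177 CPM in replicate 3. The groups did not overlap, and the log2 fold change of 0.10 ± 0.078 did not pass (edgeR, adjusted p = 0.601). Among names lacking the hyphen Psmb6 differed by 0.17, and by 0.11 among names with it. Psmb5 (chromosome 14, 54614120 to 54617995), with chymotrypsin-like activity and the target of proteasome inhibitor drugs, was at 125, 133 and 148 CPM in PT-I-PpoI and 142, 147 and 150 CPM in wild type. Its PT-I-PpoI replicates 1 and 2 were below every wild type library while replicate 3 was within their range, and its log2 fold change was -0.11 ± 0.086 (edgeR adjusted p = 0.611). The Psmb5 difference was -0.14 among names lacking the hyphen and 0.00040 among names with it. Psmb7, with trypsin-like activity, had 167, 167 and 179 CPM in PT-I-PpoI and 172, 181 and 174 CPM in wild type, which overlapped, and differed by -0.042 among names lacking the hyphen and 0.014 among names with it. Of the 5 promoter matches to the antioxidant response element core, the Psmb5 and Psmb6 windows printed above belong to genes with log2 fold changes of opposite sign. The other 3, Psmc6, Psmd9 and Psmd12, had log2 fold changes of 0.052, -0.058 and -0.052, and none of the 5 genes passed.

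Of the structural beta subunits, Psmb3 was at 128, 127 and 117 CPM in PT-I-PpoI and 120, 112 and 114 CPM in wild type, a log2 fold change of 0.10 ± 0.075. Psmb4, the most abundant beta gene per length, was at 205, 210 and 186 CPM in PT-I-PpoI and 207, 191 and 184 CPM in wild type. Both overlapped between the groups. Psmb2, the least abundant per length, had 85.8, 89.0 and 89.2 CPM in PT-I-PpoI, against 82.9, 82.1 and 85.4 CPM in wild type, without overlap at a log2 fold change of 0.076 ± 0.067. Psma4, Psmb2 and Psmb6 were the 3 of 34 members whose PT-I-PpoI libraries all lay above the wild type ones, and 0 members lay below in the same way. Among all genes tested 9.23% were higher and 7.74% were lower without overlap. Psmb11, the thymus-specific beta subunit, had 1 count in PT-I-PpoI replicate 1 and 0 in the other libraries.

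The 6 ATPase genes were evenly split, with 3 above 0 and 3 below and a median log2 fold change of 0.00032. Psmc4 had 123, 118 and 129 CPM in PT-I-PpoI and 123, 127 and 144 CPM in wild type. Its log2 fold change was -0.091 ± 0.087, with wild type replicate 3 the highest library and the others overlapping. Psmc3, the most abundant of the ring per length, was at 197, 200.3 and 229 CPM in PT-I-PpoI, against 196, 204 and 215 CPM in wild type, and differed by 0.022 among names lacking the hyphen and 0.13 among names with it. Psmc6 was at 109, 101 and 126 CPM in PT-I-PpoI and 118, 103 and 102 CPM in wild type. The difference for Psmc6 was -0.17 within libraries whose names lack a hyphen and 0.29 within those with one, so its direction was not shared by the name forms. Psmc1, Psmc2 and Psmc5 had log2 fold changes from -0.016 to 0.0036.

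Non-ATPase subunits held the lowest fitted values, and none passed: 8 of 11 had log2 fold changes below 0 and the median was -0.052. Psmd1 (chromosome 1, 86064619 to 86139295), a scaffold of the regulatory particle that docks a ubiquitin receptor, was at 113, 109 and 143 CPM in PT-I-PpoI and 127, 140 and 151 CPM in wild type. PT-I-PpoI replicates 1 and 2 were the lowest libraries and replicate 3 lay among the wild type values. The log2 fold change was -0.20 ± 0.12, with an interval from -0.47 to 0.075, and the difference was -0.19 among names lacking the hyphen and -0.022 among names with it. Psmd6, a subunit of the lid, was at 102, 103 and 116 CPM in PT-I-PpoI and 121, 119 and 111 CPM in wild type (log2 fold change -0.13 ± 0.082, edgeR adjusted p = 0.538). It differed by -0.24 among names lacking the hyphen and by 0.013 among names with it. Psmd8, also of the lid and the most abundant of the group per length, had 152, 160.1 and 169 CPM in PT-I-PpoI, against 155, 167 and 168 CPM in wild type. Among the other members the scaffold Psmd2 had a log2 fold change of -0.099, the deubiquitinase Psmd14 of -0.088 and the ubiquitin receptor Psmd4 of 0.012. The remaining Psmd3, Psmd7, Psmd11, Psmd12 and Psmd13 were between -0.14 and 0.070. Among names lacking the hyphen Psmd14 differed by -0.24, Psmd4 by 0.13 and Psmd12 by -0.14. Among names with it they differed by 0.047, -0.024 and 0.058, so each turned sign with the name form.

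The 3 assembly chaperones had the lowest levels per length of the members and small differences. Psmd9 was at 44.4, 42.0 and 42.3 CPM in PT-I-PpoI and 44.8, 42.9 and 46.2 CPM in wild type. Psmd10 (gankyrin), which also binds the retinoblastoma protein and MDM2, was at 26.5, 26.4 and 28.7 CPM in PT-I-PpoI, against 28.0, 25.4 and 24.4 CPM in wild type. Both overlapped between the groups, with log2 fold changes of -0.058 ± 0.073 for Psmd9 and 0.064 ± 0.091 for Psmd10. The Psmd10 difference turned with the name form, at -0.085 among names lacking the hyphen and 0.20 among names with it. Psmd5 had a log2 fold change of 0.027.

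A score for each role was taken in each library as the median over its genes of log2 CPM centred on the gene's mean. For all 34 members it was -0.032, -0.011 and 0.040 in PT-I-PpoI and 0.0063, -0.0042 and -0.0076 in wild type, with PT-I-PpoI both lowest and highest. The 20S core scored 0.0055, 0.047 and 0.038 in PT-I-PpoI and -0.0021, -0.024 and -0.029 in wild type. The 17 tested 19S subunits scored -0.053, -0.046 and 0.044 in PT-I-PpoI and 0.018, 0.0065 and 0.052 in wild type. PT-I-PpoI replicate 3, which carries a hyphen in its name, stood apart from the other PT-I-PpoI libraries in the 19S score and lay within the wild type range. The 20S score minus the 19S score was 0.058, 0.093 and -0.0058 in PT-I-PpoI and -0.020, -0.031 and -0.081 in wild type, so the groups did not overlap. The mean difference was 0.092 on the log2 scale (0.048 ± 0.050 in PT-I-PpoI and -0.044 ± 0.032 in wild type, SD, n = 3 each). This contrast was chosen after the values were seen and was given no test.

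**Figure D4:**
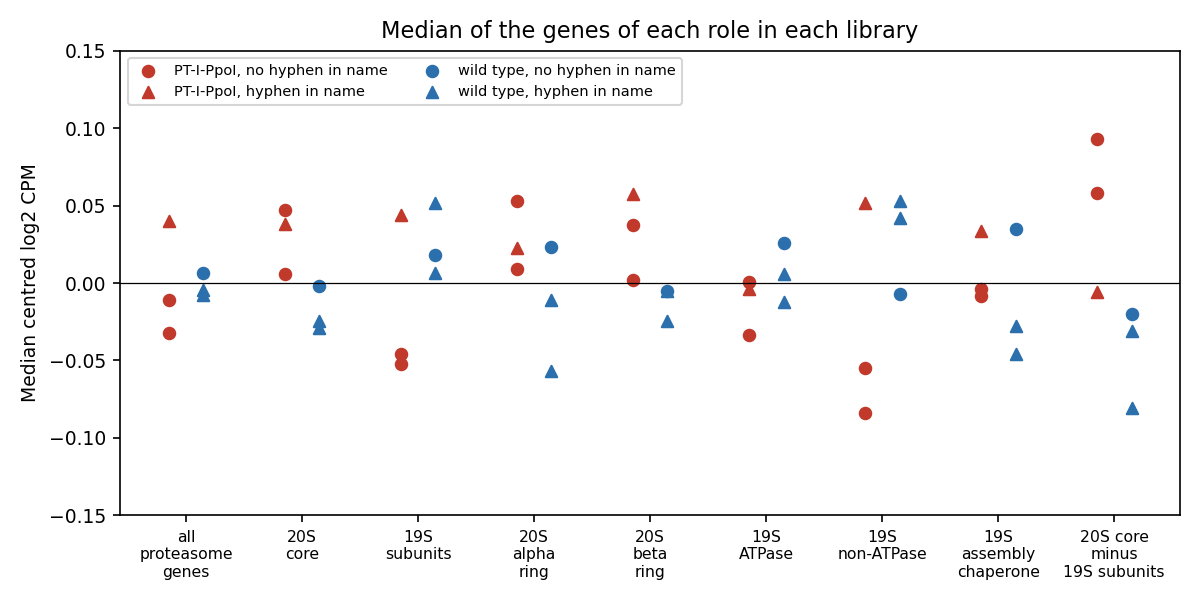
Role scores of each library (median of the centred log2 CPM values of the genes of a role); PT-I-PpoI is left of wild type, circles are libraries without and triangles libraries with a hyphen in their name. For all members the groups overlap around 0, and the 20S minus 19S difference is -0.0058 to 0.093 in PT-I-PpoI and -0.081 to -0.020 in wild type.

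The members' summed share of raw counts was 0.463%, 0.467% and 0.461% in PT-I-PpoI and 0.451%, 0.440% and 0.440% in wild type, without overlap. After library scaling by TMM factors the sums overlapped, at 4421, 4537 and 4665 CPM in PT-I-PpoI and 4514, 4528 and 4573 CPM in wild type. The factors were 1.05, 1.03 and 0.988 in PT-I-PpoI and 1.00042, 0.973 and 0.963 in wild type.

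The form of the library name was tested as a second term in the edgeR fit. With it, 0 of 34 members passed between PT-I-PpoI and wild type, where 0.458% of genes did, and the members' median was 0.0038. Between the name forms themselves 0 of 34 passed, where 3.06% of genes did. Member values for hyphenated over plain names ran from -0.20 (Psma5) to 0.28 (Psmd1), a wider range than that between the groups, with a median of 0.030. Pooled over all members, the median difference between PT-I-PpoI and wild type was -0.034 among names lacking the hyphen and 0.014 among names with it.

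Related genes of the ubiquitin and proteasome pathway also held 0 calls among 37 by edgeR. Without adjustment 3 were higher (Psmb8, Psmb10 and Psme1) and 2 lower (Ubqln2 and Ddi2) at p under 0.05, where 6.42% of all genes tested were higher and 5.61% lower. DESeq2, limma-voom and limma on the rlog values each called 0 of the 37 as well. Their median log2 fold change was 0.0035. Groups did not overlap for 5 higher and 2 lower genes of the 37, where 9.23% and 7.74% of all genes tested were higher and lower in this way. By list, all 5 assembly factors of the core had log2 fold changes above 0, with a median of 0.10. Of the 8 shuttle and VCP genes 7 had values below 0, with a median of -0.11. Over all genes tested 50.1% were above 0. Among names lacking the hyphen the medians were 0.097 for assembly factors and -0.16 for shuttle and VCP genes. Among names with it they were 0.045 and -0.0096. Psme1, which encodes a subunit of the PA28 activator that docks on the core and is induced by interferon, was at 77.9, 83.4 and 70.0 CPM in PT-I-PpoI and 64.0, 61.3 and 59.2 CPM in wild type. Every PT-I-PpoI library was above every wild type library, at a log2 fold change of 0.33 ± 0.085 with edgeR adjusted p = 0.222. Without PT-I-PpoI replicate 3, where 4.41% of all genes passed, the edgeR adjusted p of Psme1 was 0.0329. It was 0.568 without PT-I-PpoI replicate 1 and 0.618 without PT-I-PpoI replicate 2. The Psme1 difference was 0.33 among names lacking the hyphen and 0.22 among names with it. Ubqln2, a shuttle that brings ubiquitin-tagged proteins to the proteasome, was at 24.2, 22.3 and 27.9 CPM in PT-I-PpoI and 32.2, 29.8 and 29.8 CPM in wild type, lower in every library (log2 fold change -0.31 ± 0.10, edgeR adjusted p = 0.322). For Ubqln2 the difference was -0.47 among names lacking the hyphen and -0.099 among names with it. Ddi2, the protease that activates NRF1, had 6.24, 7.34 and 5.24 CPM in PT-I-PpoI, against 9.10, 7.496 and 8.37 CPM in wild type, at -0.41 ± 0.16 (edgeR adjusted p = 0.383). Its exons overlap those of Rsc1a1 on the same strand. Nfe2l1 itself was at 243, 267 and 268 CPM in PT-I-PpoI and 222, 240.3 and 251 CPM in wild type, overlapping, at 0.12 ± 0.086.

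The immunoproteasome genes replace the catalytic subunits in immune cells and after interferon: Psmb8 takes the place of Psmb5, Psmb9 that of Psmb6 and Psmb10 that of Psmb7. None passed. Psmb8 was at 16.8, 16.0 and 15.6 CPM in PT-I-PpoI and 14.5, 14.01 and 11.1 CPM in wild type, without overlap (log2 fold change 0.29 ± 0.13, edgeR adjusted p = 0.409). Psmb10 was at 18.7, 14.7 and 16.7 CPM in PT-I-PpoI, against 14.1, 14.2 and 12.5 CPM in wild type, also without overlap, whereas Psmb9 overlapped at 9.16, 7.23 and 8.58 CPM in PT-I-PpoI and 8.72, 7.65 and 5.73 CPM in wild type. The log2 fold changes were 0.30 ± 0.12 for Psmb10 (edgeR adjusted p = 0.397) and 0.18 ± 0.18 for Psmb9 (edgeR adjusted p = 0.702). Psmb9 differed by -0.098 among names lacking the hyphen and by 0.37 among names with it, and its log2 fold change was 0.019 without wild type replicate 3. The log2 ratio of the level per length of Psmb8 to that of Psmb5 averaged -3.55 ± 0.18 in PT-I-PpoI and -3.96 ± 0.24 in wild type (SD, n = 3 each; two-sided exact permutation p = 0.1). That of Psmb10 to Psmb7 averaged -3.74 ± 0.18 in PT-I-PpoI and -4.07 ± 0.096 in wild type (SD, n = 3 each; exact permutation p = 0.1), and that of Psmb9 to Psmb6 -4.08 ± 0.18 in PT-I-PpoI and -4.17 ± 0.38 in wild type (exact permutation p = 0.8). Adjusted over the 3 ratios, the exact p-values were 0.15, 0.15 and 0.8. With 3 libraries against 3 no exact permutation p can be below 0.1. The difference between the groups was 0.41 for the Psmb8 ratio and 0.27 without wild type replicate 3. For the Psmb9 ratio it was 0.083, with -0.11 without wild type replicate 3 and 0.26 without wild type replicate 1. The Psmb8 and Psmb10 ratios of all 3 PT-I-PpoI libraries lay above those of all 3 wild type libraries, in a design that cannot pass the threshold of 0.05. Macrophage and lymphocyte markers overlapped between the groups, as given above, and the part of such cells in these ratios was not tested.

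**Figure D5:**
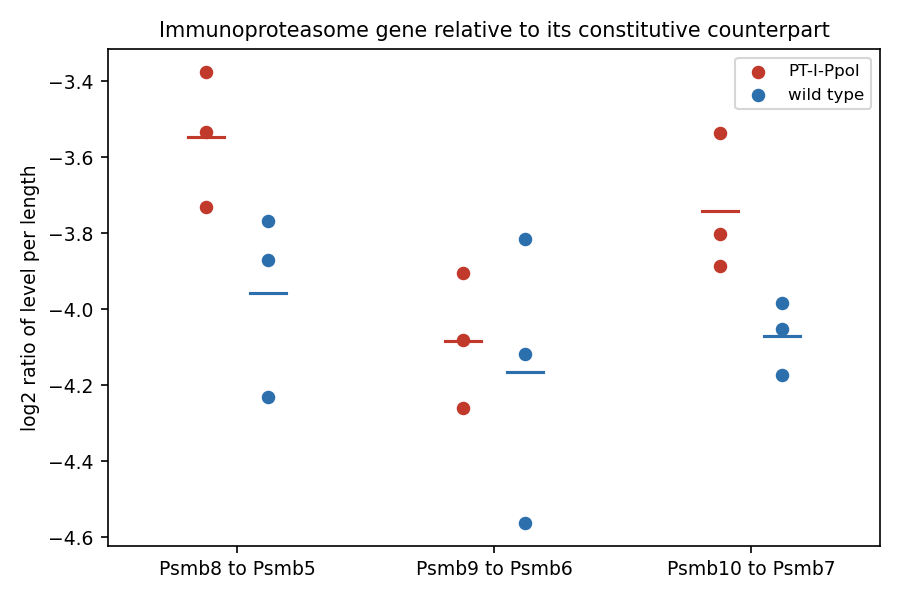
Log2 ratio of the level per length of each immunoproteasome gene to that of the constitutive catalytic gene it replaces, in every library, PT-I-PpoI left of wild type; horizontal bars are group means. Psmb8 to Psmb5 averages -3.55 in PT-I-PpoI and -3.96 in wild type, and Psmb10 to Psmb7 -3.74 in PT-I-PpoI and -4.07 in wild type, while the Psmb9 to Psmb6 values overlap.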

How the data were processed

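RNA-seq counts of 6 kidney cortex libraries were used. The authors aligned reads with HISAT2 (named in the labels' protocols) and counted read pairs over exons with featureCounts 1.5.2, per the file headers, without a strand, multi-mapping or overlap option, although the library kit kept strand. The header names an mm10 annotation and the labels' protocols mm9: all 36 members overlapped their GRCm38.p6 (mm10) position, and coordinates are those of the table. The raw counts were used as deposited. The authors also deposited regularized log2 (rlog) values, for which the submitters' processing notes name DESeq2, and these served an alternative test.

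The filter was filterByExpr (minimum count 10), with TMM scaling. Groups were compared by the quasi-likelihood test of edgeR 4.0.16 in R 4.3.3. Its two-sided p-values were adjusted over the 13977 genes by the Benjamini-Hochberg method, with a threshold of 0.05. Intervals are 95% intervals of that fit. Log2 CPM used a prior count of 2. RPKM divides TMM-scaled CPM by the exon length in the table. DESeq2 1.42.0 and limma 3.58.1 were alternatives, with other scalings and filters, a replicate block, the name form as a term, and leaving out each library. No per-sample columns were left unused. Intervals cover counting error and the spread between these libraries.

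The rule for members uses names alone, but the family, the lists and the role groups were chosen with earlier results of these data known. Values in every library are given for called members, the 2 smallest p in each role group, the highest and lowest levels per length in each ring or subunit group, the catalytic and immunoproteasome genes, Nfe2l1, and related genes called or with the 3 smallest p.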

Additional observations from a re-analysis of the deposited data

How the results depend on the processing

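In all 15 alternatives with a test, 0 of 34 members (36 without a low-count filter) passed. Over these, log2 fold changes of the 34 ran from -0.32 to 0.21 and the smallest adjusted p was 0.0841, both extremes without PT-I-PpoI replicate 3. The count over all genes moved far more: 47 without a filter, 194 by DESeq2 (133 higher, 61 lower), 64 (49 higher, 15 lower) once the name form was added to the fit, and 0 to 617 with a library left out, the highest (4.41% of genes, with 0 members) without PT-I-PpoI replicate 3. It was 0 on leaving out PT-I-PpoI replicates 1 or 2 (each in turn) or wild type replicate 3, 2 without wild type replicate 1 and 9 without wild type replicate 2. The replicate block gave 40 genes and 0 members. Deviations of same-numbered libraries from their group means correlated at 0.22, -0.13 and 0.16, and not every library correlated best with its own number. Deviations within a group sum to 0, so these correlations depend on each other and cannot decide whether the numbers pair the libraries.

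Medians moved by more than the spread between replicates in these cases. ATPase genes gave 0.020 with upper-quartile factors, -0.025 with the name form as a term, -0.025 within libraries with a hyphen, and -0.034 to 0.013 with a library left out. Alpha ring genes gave 0.063 without a filter, where Psma8 enters. Beta ring genes gave 0.0044 within libraries without a hyphen and 0.030 to 0.069 with a library left out. Within libraries without a hyphen all members gave -0.034 and the chaperones -0.053; within those with one, non-ATPase genes gave 0.013. With the name form as a term, 4 members turned sign: Psmb4 (-0.0022), Psmc1 (-0.025), Psmd3 (0.0098) and Psmd8 (0.013). Among the genes given in every library, leaving out a library turned the sign of Psmd8 (-0.059 to 0.010), Psmc6 (-0.035 to 0.12) and Psmc3 (-0.042 to 0.064). The differences in log2 ratio ran from 0.27 to 0.50 for Psmb8 to Psmb5, -0.11 to 0.26 for Psmb9 to Psmb6 and 0.22 to 0.40 for Psmb10 to Psmb7 with a library left out. The cause was not tested. Psma8 and Psmb11 had too few counts to pass the filter, and entered the test only without it.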
